A study of Mus musculus with 8 samples.

Results

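The semaphorin, plexin, ephrin, Eph, Slit, Robo, netrin and Unc5 genes are the families of axon guidance ligands and receptors, which blood vessels also use. They were described here in whole hearts of C57BL/6 mice at postnatal day 12, as RNA from 4 wild type libraries and 4 libraries labelled as PHD2/3 endothelial knockout. The wild type mice came from the same litters, and the knockout removes the prolyl hydroxylases PHD2 and PHD3 (genes Egln1 and Egln3) from endothelial cells. The labels do not name the Cre line or the alleles, so which endothelial cells recombined is not known here. Members were the rows whose symbol starts with a family stem and its number or subclass letter, and 67 of 22518 rows qualified. A wider reading of the same stems, which takes in Unc50, Unc5cl and the Slitrk genes, gave 75 rows. Values are FPKM (fragments sequenced per length of transcript and per library size), quantile normalised by the authors, and depth is unknown.

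Guidance ligands steer a growing cell process by attraction or repulsion through receptors that rearrange its actin skeleton. Semaphorins bind plexins, and most secreted class 3 semaphorins do so with a neuropilin as co-receptor. Ephrins are tethered to the membrane and signal into the Eph-bearing cell and back into their own, and in vessels ephrin-B2 on arteries and EphB4 on veins are a classical pair. Slits bind Robo receptors and netrins bind DCC, neogenin and Unc5 receptors. Robo4 is largely restricted to endothelium and its extracellular part binds Unc5b, which marks arterial and sprouting tip cells. Prolyl hydroxylases use oxygen to mark the oxygen-labile subunits of hypoxia-inducible factors for degradation.

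A gene was tested where its mean over the 8 samples was at least 1 FPKM, which 40 of the 67 members and 11390 of all genes reached. The groups were compared with limma on log2(FPKM + 1), and a gene was called raised or lowered at a Benjamini-Hochberg adjusted p under 0.05 over all genes tested. Log2 changes are given ± SE on that scale, which understates the change of low genes, and folds are ratios of mean FPKM. Group values are means ± SD with n = 4. Whether each library comes from its own animal is not given in the labels, and p-values reflect only how these samples vary.

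Neither targeted gene was lower at the RNA level. Egln1 was at 54.2, 54.4, 57.9 and 45.2 FPKM in wild type hearts, against 58.4, 55.0, 52.6 and 63.5 FPKM in knockout replicates 1 to 4 (limma adjusted p = 0.442). Egln3 was at 25.1, 31.3, 38.7 and 17.96 FPKM in wild type hearts, against 52.8, 37.8, 32.6 and 40.1 FPKM in knockout replicates (limma adjusted p = 0.132). A gene-level value of a whole heart does not show a deletion in endothelial cells, so the genotype rests on the labels. Wild type replicate 4 held RNA of lung markers, with a summed level of 7 lung epithelial markers of 1245 FPKM against at most 0.757 FPKM in any other library. Nearly all of that sum was Scgb1a1 at 1030 FPKM and Scgb3a2 at 206 FPKM. In the same library Sftpa1 was at 3.83, Sftpd at 3.06, Napsa at 0.713, Sftpb at 0.454 and Sftpc at 0 FPKM. Knockout replicate 4 has a library number away from the run of the other 7. Cardiomyocyte markers were high in every library, with a sum over 6 genes of 33631 to 37986 FPKM in wild type and 25991 to 35306 FPKM in knockout hearts. The right atrial gene Bmp10 and the Y chromosome gene Ddx3y were each unevenly spread within both groups.

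Of the 40 tested guidance genes, 3 were raised and 9 lowered, which makes 30% called beside 12.2% of all genes tested. The raised share was 7.5% beside 6.15% of all genes, and the lowered share was 22.5% beside 6.01%. The raised genes were the semaphorins Sema3f and Sema6d and the netrin receptor Unc5b. The lowered genes were the semaphorins Sema6a and Sema6c, the ephrins Efna1, Efnb1, Efnb2 and 1 of 2 rows of Efna5, the receptors Ephb1 and Ephb4, and Robo4. In 15 members (37.5%) the groups did not overlap, beside 20.7% of all genes. The median log2 change of the 40 was -0.13, beside -0.009 over all genes, with 17 above 0 and 23 below. No plexin, EphA receptor, Slit or netrin passed the test. In whole hearts, fewer cells of a type and less RNA per cell cannot be told apart. At an unadjusted p under 0.05 stood 27 of the 40 and 3377 of all 11390 genes tested.

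The calls were of uneven stability. Sema3f, Sema6a, Sema6d, Efna1, Efnb1, Ephb1, Robo4 and Unc5b kept their call when any 1 of the 8 samples was left out. The number of lowered members was 5 with wild type replicate 3, wild type replicate 4 or knockout replicate 2 left out, and 6 with wild type replicate 1 or 2 left out. The number of raised members was 5 without knockout replicate 1, where Ntn1 and Plxna4 were added. Without both replicates 4, 4 members were raised and 5 lowered.

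**Figure D1:**
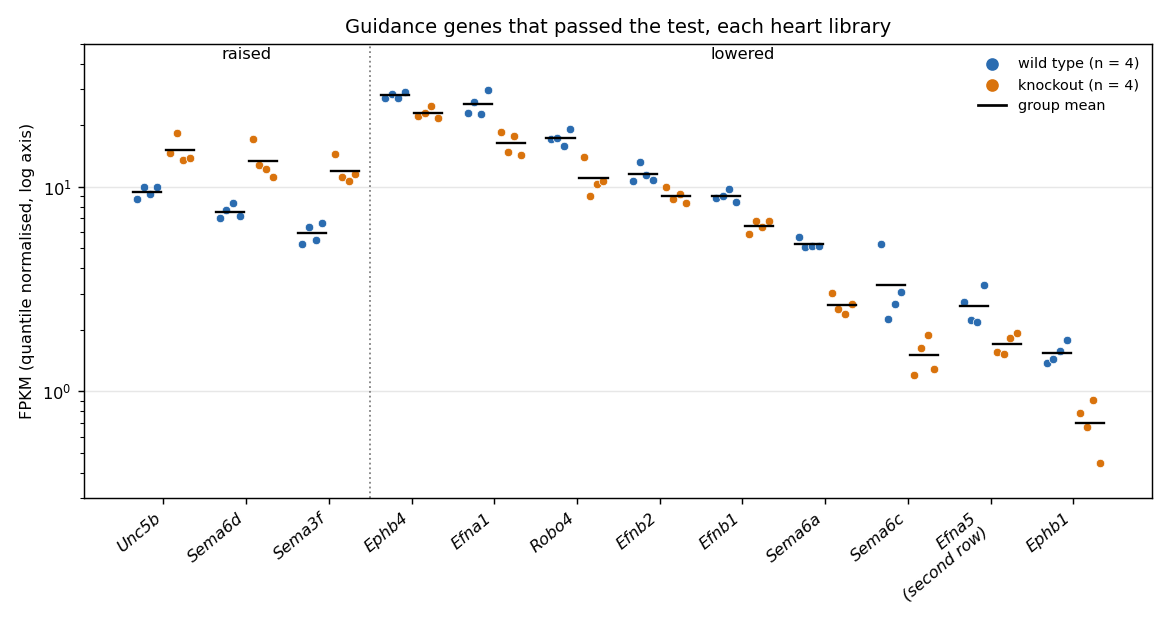
FPKM on a log axis of the 12 guidance genes that passed the test. Points are single heart libraries (wild type blue, knockout orange) and black lines are means of 4. For all 12 genes the orange and blue points do not overlap, with Unc5b, Sema6d and Sema3f higher and the other 9 lower in the knockout hearts.

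Promoter sequence is shown for 2 raised and 2 lowered genes, as the 250 bases before the annotated start, because hypoxia-inducible factors bind the core letters ACGTG or GCGTG. Sequences are from RefSeq on GRCm38.p6 (mm10), 5′ to 3′ along the gene, and capitals mark a match on either strand. The windows are chr2:124089719-124089968 (+ strand) for Sema6d, the first of its 2 listed starts, chr10:60831582-60831831 (- strand) for Unc5b and chrX:99135811-99136060 (+ strand) for Efnb1. That of Robo4, chr9:37401722-37401896 (+ strand), was shortened to 175 bases so that it stops before an annotated exon.
Sema6d: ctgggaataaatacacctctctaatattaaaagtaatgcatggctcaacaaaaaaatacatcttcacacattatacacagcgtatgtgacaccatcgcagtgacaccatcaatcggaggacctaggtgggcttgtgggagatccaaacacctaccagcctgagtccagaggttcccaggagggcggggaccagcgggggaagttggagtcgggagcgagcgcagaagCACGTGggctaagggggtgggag
Unc5b: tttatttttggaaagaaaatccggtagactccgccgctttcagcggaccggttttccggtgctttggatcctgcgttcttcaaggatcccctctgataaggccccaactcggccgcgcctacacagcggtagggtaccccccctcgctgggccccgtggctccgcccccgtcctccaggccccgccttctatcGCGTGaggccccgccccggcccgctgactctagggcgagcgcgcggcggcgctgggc
Efnb1: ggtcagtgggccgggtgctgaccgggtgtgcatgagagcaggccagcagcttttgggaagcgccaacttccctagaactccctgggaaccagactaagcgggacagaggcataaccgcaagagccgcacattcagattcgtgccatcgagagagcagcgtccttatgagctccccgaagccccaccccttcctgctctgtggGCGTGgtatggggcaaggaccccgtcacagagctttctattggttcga
Robo4: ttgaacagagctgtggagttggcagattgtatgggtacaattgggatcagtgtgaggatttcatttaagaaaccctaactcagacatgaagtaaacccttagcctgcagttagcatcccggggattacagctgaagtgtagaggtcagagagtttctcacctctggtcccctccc
The Sema6d window shown carries the palindrome CACGTG, which reads ACGTG on both strands and begins 23 bases before the start. The window of the other Sema6d start in RefSeq, chr2:124653331-124653580, holds neither ACGTG nor GCGTG. The GCGTG match begins 57 bases before the start in Unc5b and 48 bases in Efnb1, a raised and a lowered gene, and the Robo4 window has no match. Over the 32851 RefSeq windows, not all of which have the full 250 bases, 16.6% hold ACGTG and 28.2% hold GCGTG. For 57 matched guidance symbols the 73 windows gave 16.4% and 32.9%, so these letters were about as frequent there as in all promoters. The letters GGGCGG, the core of the GC box bound by SP1, were in 69.9% of the guidance windows and in 32.7% of all windows. Sema3f had no entry. A match is a description of letters and not a measured binding site.

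Class 6 semaphorins are transmembrane ligands of class A plexins, and they moved in opposite directions. All 4 members were tested, and 1 was raised and 2 were lowered (75% called, beside 12.2% of all genes). The groups did not overlap for any of the 4, and 20.7% of all genes had no overlap.

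Sema6d (chromosome 2, 124089969 to 124667770, + strand) has been described in cardiac morphogenesis as a ligand of plexin-A1. The wild type replicates 1 to 4 were at 7.02, 7.69, 8.31 and 7.18 FPKM, and the knockout replicates in the same order at 17.2, 12.8, 12.3 and 11.2 FPKM. Every knockout heart was above every wild type heart, with replicate 1 the highest. The rise was 1.77-fold, from 7.55 ± 0.583 to 13.4 ± 2.63 FPKM (log2 change 0.73 ± 0.12, limma adjusted p = 0.00625).

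Sema6a (chromosome 18, 47235598 to 47368870, - strand) signals through plexin-A2 and plexin-A4. It was at 5.67, 5.06, 5.14 and 5.11 FPKM in wild type hearts, against 3.04, 2.51, 2.38 and 2.68 FPKM in knockout hearts. Both groups were tight and far apart. The fall was 1.98-fold (log2 change -0.78 ± 0.08, limma adjusted p = 0.00105), the smallest p of any guidance gene here.

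Sema6c (chromosome 3, 95160457 to 95174024, + strand) is another member of the class. It was at 5.23, 2.26, 2.67 and 3.05 FPKM in wild type hearts, against 1.20, 1.62, 1.89 and 1.29 FPKM in knockout hearts. The wild type values were widely spread, with replicate 1 well above the rest. The fall was 2.21-fold (log2 change -0.75 ± 0.19, limma adjusted p = 0.0340). Omitting any 1 of wild type replicates 3 and 4 and knockout replicates 1, 2 and 4 ended the call, where the adjusted p was 0.0503 to 0.0745.

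Sema6b, at 2.38 ± 0.239 FPKM in wild type hearts against 2.94 ± 0.283 FPKM in knockout hearts, did not pass the test (limma adjusted p = 0.137). The summed level of the class was 18.5 ± 1.41 FPKM in wild type hearts against 20.5 ± 2.91 FPKM in knockout hearts. Its makeup differed more than its sum: Sema6d made up 34.2 to 45.5% of the class in wild type and 61.7 to 69.5% in knockout hearts. Sema6a held 27.6 to 29.1% and then 12.3 to 14.7%. These shares were chosen after the values were seen and describe the same samples, with no test.

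Class 3 semaphorins are secreted and mostly repel endothelial cells and axons. Of 7 members 6 were tested, and 1 was raised and 0 lowered (16.7% called, beside 12.2% of all genes). Sema3f (chromosome 9, 107681500 to 107710475, - strand), a neuropilin-2 ligand that restrains vessel growth in several settings, was the raised member. It was at 5.27, 6.33, 5.51 and 6.64 FPKM in wild type hearts, against 14.4, 11.2, 10.7 and 11.6 FPKM in knockout hearts. The groups were well apart and the rise was 2.02-fold (log2 change 0.90 ± 0.11, limma adjusted p = 0.00159). Sema3b lies close to it on the same chromosome and strand (107597674 to 107609229). That neighbour was at 4.09 ± 0.476 FPKM in wild type hearts, against 6.18, 4.99, 4.41 and 1.63 FPKM in knockout replicates 1 to 4, a wide spread around a similar mean (limma adjusted p = 0.953).

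The other class 3 genes did not pass the test. Sema3c, which guides neural crest cells into the outflow tract, was at 6.53 to 7.62 FPKM in wild type hearts, against 6.05, 4.72, 4.61 and 1.91 FPKM in knockout replicates 1 to 4. The groups did not overlap but knockout replicate 4 lay far below the rest (log2 change -0.67 ± 0.23, limma adjusted p = 0.0891). It was called with array weights and without knockout replicate 1 or 4, with adjusted p as low as 0.0326. Sema3d was at 1.92 ± 0.486 FPKM in wild type hearts against 2.80 ± 0.298 FPKM in knockout hearts (limma adjusted p = 0.0647), and was called with array weights, without wild type replicate 4 (0.0217) and without both replicates 4. Sema3g, an endothelial semaphorin, was at 7.55 ± 1.04 FPKM in wild type hearts against 5.80 ± 0.911 FPKM in knockout hearts (limma adjusted p = 0.101). Sema3a, the classical collapsing factor for growth cones, was at 0.755 ± 0.256 FPKM in wild type hearts against 1.33 ± 0.429 FPKM in knockout hearts (limma adjusted p = 0.120).

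**Figure D2:**
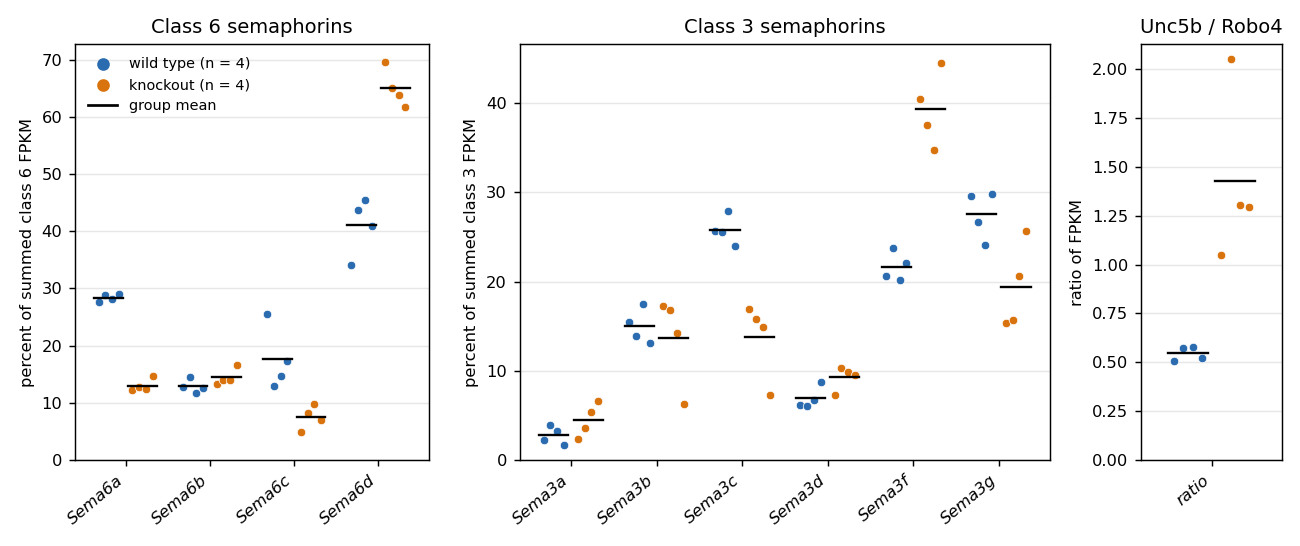
Each class 6 semaphorin (left) and each tested class 3 semaphorin (middle) as a percentage of the summed FPKM of those genes, and the ratio of Unc5b to Robo4 FPKM (right), all on linear axes from 0. Points are single heart libraries (wild type blue, knockout orange) and black lines are means of 4. Sema6d rises from a mean of 41.1% to 65.0% of its class and Sema3f from 21.7% to 39.3%, and the ratio lies between 0.508 and 0.579 in wild type and between 1.05 and 2.05 in knockout hearts.

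Class 4, 5 and 7 semaphorins gave 0 calls in limma among 5 tested genes, of which Sema4c and Sema5a had an unadjusted p under 0.05. Sema7a, a membrane-anchored ligand of integrins and plexin-C1, was the most abundant semaphorin at 20.0 ± 1.73 FPKM in wild type hearts against 18.3 ± 3.88 FPKM in knockout hearts (limma adjusted p = 0.531). Sema4c was at 6.39 ± 0.443 FPKM in wild type hearts against 8.32 ± 1.87 FPKM in knockout hearts, the latter lifted by replicate 1 at 11 FPKM (limma adjusted p = 0.135). Sema5a was at 2.21 ± 0.201 FPKM and 2.67 ± 0.157 FPKM (limma adjusted p = 0.145). Sema4b and Sema4d had adjusted p of 0.268 and 0.361.

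Plexins, the semaphorin receptors, gave 0 calls among 7 tested genes in limma. An unadjusted p under 0.05 was found for 3377 of all 11390 genes tested and for 6 of these 7 plexins. Their estimates were below 0 for 5 and above 0 for 2, with a median log2 change of -0.33. Plxnb2, a receptor of class 4 semaphorins, had the highest wild type level of all guidance genes at 28.1, 38.3, 32.7 and 47.3 FPKM and was at 28.8, 31.3, 28.1 and 25.5 FPKM in the knockout hearts. These groups overlapped (limma adjusted p = 0.158). Plxnd1, the endothelial plexin that binds Sema3e, was at 33.6, 35.0, 32.6 and 34.7 FPKM in wild type hearts, against 34.2, 23.4, 27.3 and 17 FPKM in knockout replicates 1 to 4. Knockout replicate 1 lay among the wild type values and replicate 4 was lowest (log2 change -0.44 ± 0.17, limma adjusted p = 0.119). Plxnd1 was called without knockout replicate 1, with an adjusted p of 0.0233, while its log2 change was 0.11 with the mean level of 6 endothelial markers as a covariate. Plxna1, a receptor of Sema6d, was at 4.83 ± 0.681 FPKM in wild type hearts against 6.14 ± 0.537 FPKM in knockout hearts, without overlap (limma adjusted p = 0.0902). Plxna2 and Plxna4, the receptors of Sema6a, had adjusted p of 0.771 and 0.112. Plxna4 was called only without knockout replicate 1 (0.0310) and Plxnb1 only without knockout replicate 3 (0.0392), among the alternatives run. Plxnc1 was at 1.39 ± 0.291 FPKM in wild type hearts against 0.891 ± 0.257 FPKM in knockout hearts (limma adjusted p = 0.115). It was called with the Bmp10 covariate (0.0437).

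Ephrins were lowered in 4 of 6 tested rows (66.7%, beside 6.01% of all genes) and raised in 0. Ephrin-A ligands are held by a lipid anchor and ephrin-B ligands cross the membrane. The 6 rows had a median log2 change of -0.42.

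Efna1 (chromosome 3, 89271733 to 89281142, - strand), an endothelial ligand of EphA2, was the most abundant ephrin. It was at 22.9, 26.1, 22.7 and 29.9 FPKM in wild type hearts, against 18.6, 14.8, 17.8 and 14.4 FPKM in knockout hearts. No knockout value reached the lowest wild type value. The fall was 1.55-fold, from 25.4 ± 3.37 to 16.4 ± 2.14 FPKM (log2 change -0.60 ± 0.12, limma adjusted p = 0.0121).

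Efnb1 (X chromosome, 99136130 to 99148991, + strand) is a ligand of several EphB receptors. It was at 8.84, 8.97, 9.80 and 8.40 FPKM in wild type hearts, against 5.87, 6.79, 6.34 and 6.77 FPKM in knockout hearts. The fall of 1.4-fold was uniform over the samples (log2 change -0.43 ± 0.08, limma adjusted p = 0.0100).

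Efnb2 (chromosome 8, 8617434 to 8661242, - strand) is the arterial ephrin. It was at 10.7, 13.3, 11.4 and 10.8 FPKM in wild type hearts, against 9.995, 8.68, 9.27 and 8.32 FPKM in knockout hearts. The highest knockout value lay just under the lowest wild type value. The fall was 1.27-fold (log2 change -0.32 ± 0.09) and passed narrowly (limma adjusted p = 0.0499). Leaving out knockout replicate 1 kept this call and each of the other 7 omissions ended it, with an adjusted p of 0.0657 to 0.137.

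Efna5, a ligand of several EphA receptors, has 2 rows under different identifiers whose reads the authors' quantification may have divided, so both are uncertain. The row ENSMUSG00000090425, which is not in the GENCODE M21 annotation, was at 2.74, 2.23, 2.18 and 3.31 FPKM in wild type hearts, against 1.55, 1.51, 1.83 and 1.92 FPKM in knockout hearts (log2 change -0.41 ± 0.12, limma adjusted p = 0.0479). Each omission other than that of knockout replicate 4 ended this call (adjusted p 0.0564 to 0.114). The row ENSMUSG00000048915 (chromosome 17, 62604184 to 62881317, - strand) averaged 1.52 ± 0.533 FPKM in wild type hearts against 2.11 ± 0.284 FPKM in knockout hearts and was not called (limma adjusted p = 0.172).

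Efnb3, a ligand best known from the nervous system, did not pass the test and was widely spread. It was at 12.9 to 17.3 FPKM in wild type hearts, against 4.94, 6.85, 16.2 and 13.3 FPKM in knockout replicates 1 to 4. The knockout hearts thus fell into a low and a high pair (log2 change -0.60 ± 0.31, limma adjusted p = 0.226).

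Among the receptors of the ephrins, 2 of 3 tested EphB genes were lowered (66.7%, beside 6.01% of all genes). Of 3 tested EphA genes 0 passed (1 at an unadjusted limma p under 0.05). Ephb4 (chromosome 5, 137350109 to 137378669, + strand), the venous receptor of ephrin-B2, was the most abundant Eph gene. It was at 27.3, 28.5, 27.3 and 29.3 FPKM in wild type hearts, against 22.2, 23.0, 24.9 and 21.7 FPKM in knockout hearts. The fall was small but larger than the spread, 1.22-fold (log2 change -0.28 ± 0.07, limma adjusted p = 0.0341). Its call was lost without any 1 wild type replicate and without knockout replicate 1 or 2 (adjusted p 0.0522 to 0.0988), and without both replicates 4. The ratio of Efnb2 to Ephb4 was 0.411 ± 0.0415 in wild type and 0.396 ± 0.0369 in knockout hearts, with overlap.

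Ephb1 (chromosome 9, 101922128 to 102354693, - strand) is a receptor of B ephrins at a low level in the heart. It was at 1.37, 1.44, 1.58 and 1.77 FPKM in wild type hearts, against 0.779, 0.669, 0.909 and 0.446 FPKM in knockout hearts. Every knockout heart was under 1 FPKM and every wild type heart above it. The fall was 2.20-fold (log2 change -0.58 ± 0.11, limma adjusted p = 0.0111). Exons of both lowered EphB genes overlap a gene on the other strand (Zan for Ephb4, Gm26846 for Ephb1) and the strandedness of the quantification is not given in the sources used here.

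Ephb3 was at 2.32 ± 0.284 FPKM in wild type hearts against 2.80 ± 0.676 FPKM in knockout hearts (limma adjusted p = 0.388). Of the EphA genes, Epha4, a receptor of both ephrin classes, was at 4.28 ± 0.564 FPKM in wild type hearts against 3.09 ± 0.778 FPKM in knockout hearts (limma adjusted p = 0.109), and was called only with the Ddx3y covariate (0.0330). Epha2, the main receptor of ephrin-A1, had nearly equal means of 3.07 ± 0.368 and 3.13 ± 0.369 FPKM (limma adjusted p = 0.906). Its ligand gene Efna1 fell in the same hearts.

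**Figure D3:**
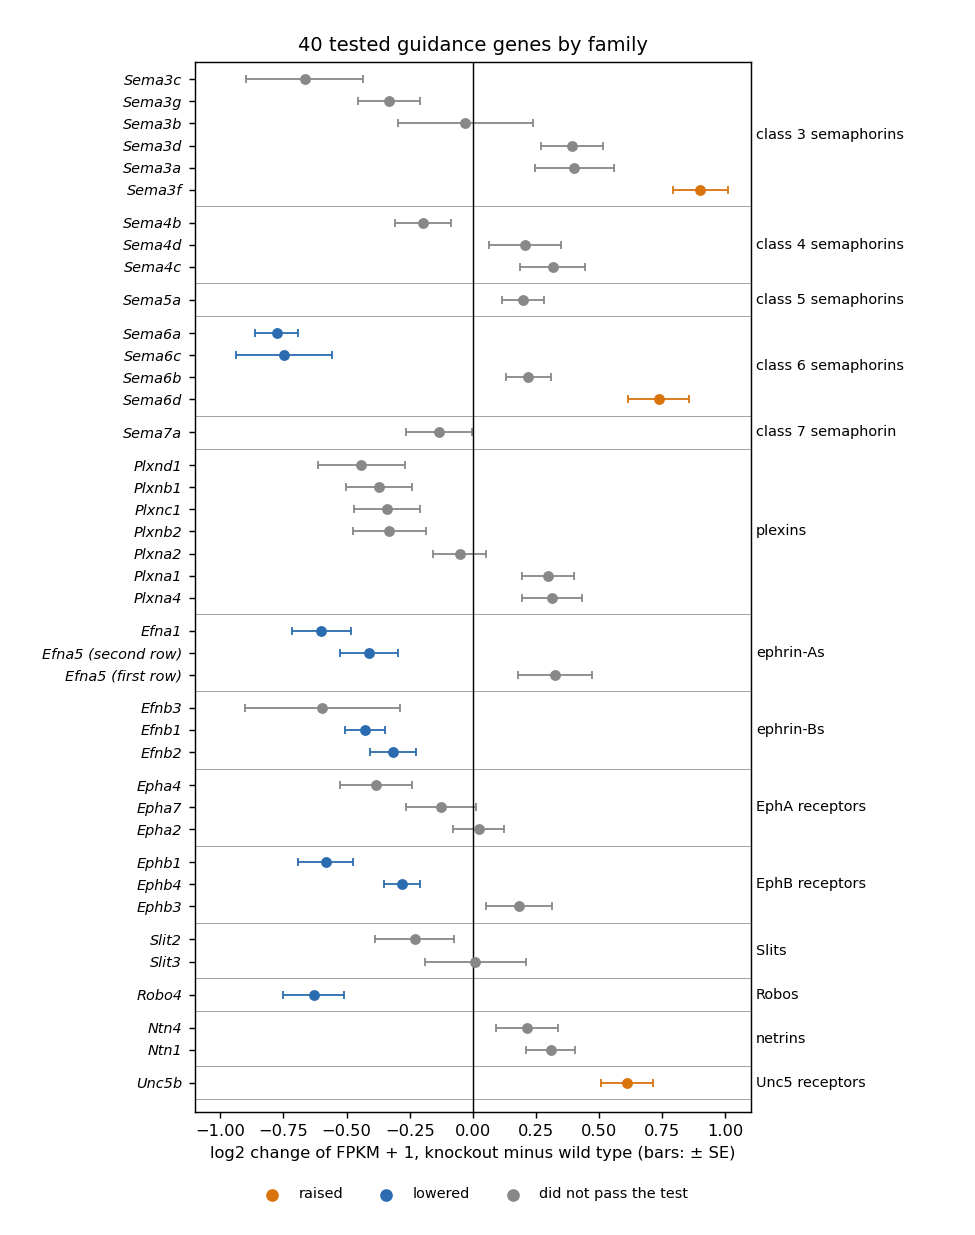
Log2 change of FPKM + 1, knockout minus wild type, of the 40 tested guidance genes, grouped by family. Points are limma estimates from 4 against 4 libraries and bars are ± SE, with raised genes orange, lowered genes blue and genes that did not pass the test grey. The class 6 semaphorins lie on both sides of 0, from -0.78 for Sema6a to 0.73 for Sema6d, and 5 of the 6 ephrin rows lie below 0.

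The receptors Robo4 and Unc5b moved in opposite directions. Robo4 (chromosome 9, 37401897 to 37415115, + strand), which stabilises endothelial junctions, was at 17.2, 17.4, 15.9 and 19.2 FPKM in wild type hearts, against 14.0, 8.98, 10.4 and 10.7 FPKM in knockout hearts. All knockout hearts were lower, with replicate 1 nearest to the wild type. The fall was 1.58-fold, from 17.4 ± 1.36 to 10.99 ± 2.11 FPKM (log2 change -0.63 ± 0.12, limma adjusted p = 0.0117). Unc5b (chromosome 10, 60762593 to 60831581, - strand), a netrin receptor that also binds Robo4, was at 8.74, 10.0045, 9.18 and 9.998 FPKM in wild type hearts, against 14.6, 18.4, 13.5 and 13.8 FPKM in knockout hearts. All knockout hearts were higher, with replicate 2 the highest. The rise was 1.59-fold, from 9.48 ± 0.629 to 15.1 ± 2.26 FPKM (log2 change 0.61 ± 0.10, limma adjusted p = 0.00668). The ratio of Unc5b to Robo4 was 0.508, 0.575, 0.579 and 0.522 in wild type and 1.05, 2.05, 1.31 and 1.296 in knockout hearts. Robo4 was thus the more abundant of the pair in every wild type heart and Unc5b in every knockout heart.

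No netrin or Slit passed the test, with 1 netrin and 0 Slits at an unadjusted limma p under 0.05. Ntn1, the founding netrin, was at 15.3, 11.6, 13.1 and 13.1 FPKM in wild type hearts, against 14.9, 16, 17.5 and 18.2 FPKM in knockout hearts. Only wild type replicate 1 and knockout replicate 1 broke the separation, and the gene was called when either was left out (limma adjusted p = 0.0671, and 0.0476 and 0.0433 without them). Ntn4, a netrin of basement membranes, was at 4.96 ± 0.694 FPKM in wild type hearts against 5.94 ± 0.947 FPKM in knockout hearts (limma adjusted p = 0.268). Slit3 was at 2.92 ± 0.533 FPKM in wild type hearts, against 1.49, 3.53, 3.71 and 3.41 FPKM in knockout replicates 1 to 4 (limma adjusted p = 0.981). Slit2 was at 1.75 ± 0.513 FPKM in wild type hearts against 1.33 ± 0.360 FPKM in knockout hearts (limma adjusted p = 0.359).

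**Figure D4:**
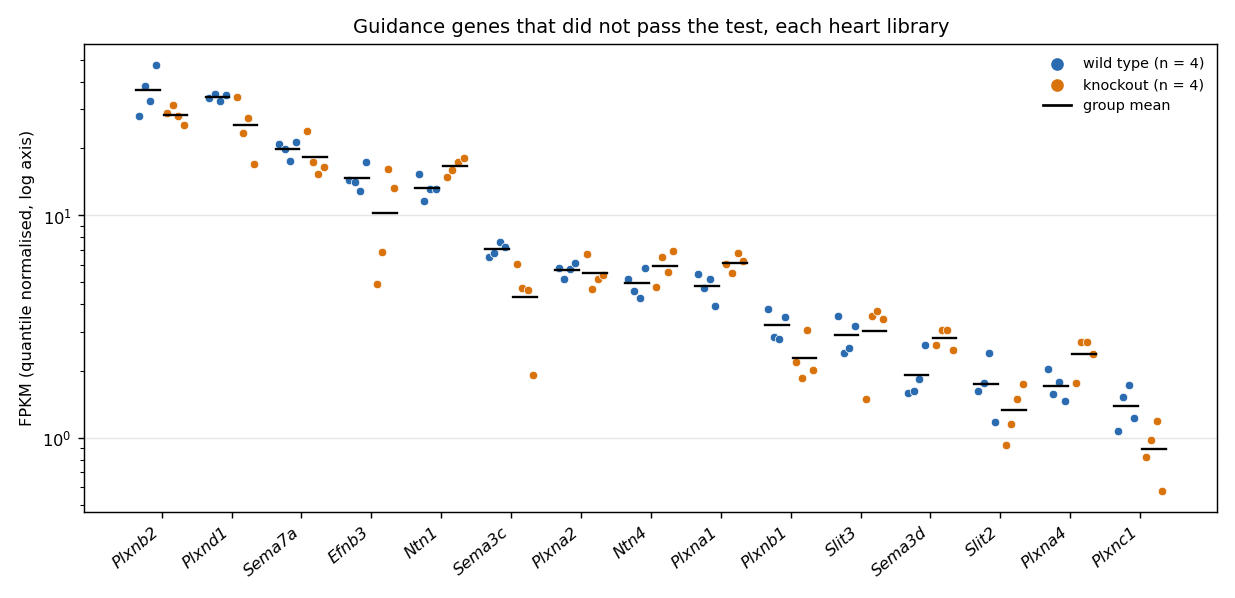
FPKM on a log axis of 15 guidance genes that did not pass the test, among them the plexins, netrins and Slits tested. Points are single heart libraries (wild type blue, knockout orange) and black lines are means of 4. Spread within the knockout group is visible for Plxnd1 (17 to 34.2 FPKM), Efnb3 (4.94 to 16.2 FPKM) and Sema3c (1.91 to 6.05 FPKM).

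In wild type hearts the 3 most abundant guidance genes per length were receptors, Plxnb2 at 36.6, Plxnd1 at 34.0 and Ephb4 at 28.1 FPKM. Efna1 followed at 25.4, Sema7a at 20.0, Robo4 at 17.4, Efnb3 at 14.7, Ntn1 at 13.3, Efnb2 at 11.5, Unc5b at 9.48 and Efnb1 at 9.0 FPKM. Among the first 16 genes in this order, the ranges of neighbours did not overlap only between Plxnd1 and Ephb4, Efna1 and Sema7a, and Efnb2 and Unc5b. The other neighbours did not differ beyond their spread.

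The remaining 27 members had a mean under 1 FPKM and were not tested. Robo1 was the highest of them at a mean of 0.975 FPKM, and 7 stayed under 0.1 FPKM in every sample. Sema3e, the ligand of plexin-D1, was at 0.0902 FPKM in wild type hearts against 0.0547 FPKM in knockout hearts. Of the Robo and Unc5 families, Robo4 and Unc5b were the only members above the filter. In 2 of the 27 the groups did not overlap, a lower share than the 20.7% of all genes tested. Sema4f, a class 4 semaphorin, was at 0.119, 0.187, 0.133 and 0.0974 FPKM in wild type hearts, against 0.0546, 0.0469, 0.0470 and 0.0408 FPKM in knockout hearts. Efna2, an ephrin-A ligand, was at 0.551, 0.585, 0.566 and 0.369 FPKM, against 0.308, 0.331, 0.362 and 0.287 FPKM. Every knockout heart lay below every wild type heart for both genes. In the fit with no filter Sema4f was the only one of the 27 called, as lowered (limma adjusted p = 0.0415), while Efna2 was not called (0.0876). That fit called 1078 of all 17874 genes in it. The depth behind these low values is unknown.

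Of the co-receptors and other ligands of these pathways, 16 genes were listed, 8 of their 18 rows were tested, and 1 was raised and 1 lowered. Their median log2 change was -0.19, beside -0.009 over all genes, and 25% were called, beside 12.2%. Gpc1, a heparan sulphate proteoglycan that binds Slits, rose from 36.1, 34.4, 33.4 and 30.3 FPKM to 50.5, 63.4, 52.4 and 45.6 FPKM (log2 change 0.64 ± 0.10, limma adjusted p = 0.00592). Its groups were well apart. Flrt2, a ligand of Unc5 receptors, fell from 2.22 ± 0.350 to 1.46 ± 0.176 FPKM (log2 change -0.39 ± 0.11, limma adjusted p = 0.0421), a call that held among single omissions only without wild type replicate 4 (otherwise adjusted p 0.0519 to 0.129). The neuropilins did not pass the test. Nrp1 was at 29.9 ± 1.3 FPKM in wild type hearts against 26.0 ± 2.37 FPKM in knockout hearts (limma adjusted p = 0.145). Nrp2, the co-receptor of Sema3f, was at 15.3 to 16.3 FPKM in wild type hearts, against 15.9, 10.4, 14.4 and 7.73 FPKM in knockout replicates 1 to 4 (limma adjusted p = 0.178). Of the netrin receptors, Neo1 was at 9.28 ± 1.19 FPKM in wild type hearts against 10.6 ± 2.33 FPKM in knockout hearts (limma adjusted p = 0.527), and Dcc was listed at 0 in all samples.

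Among 48 intracellular partners, 42 of 49 rows were tested and 4 were raised and 4 lowered, 19% beside 12.2% of all genes. Their median log2 change was 0.06. Tiam1, an activator of the GTPase Rac that binds ephrin-B signalling complexes, was at 1.19, 0.866, 1.22 and 0.936 FPKM in wild type and rose to 1.86, 2.68, 2.03 and 2.55 FPKM in knockout hearts (log2 change 0.67 ± 0.11, limma adjusted p = 0.00662). Enah, which lengthens actin filaments, rose 1.6-fold (limma adjusted p = 0.0306), a call ended by omitting any 1 of wild type replicates 2, 3 and 4 and knockout replicates 2 and 3 (0.0540 to 0.0952). Both rows of Mical3, of a family of actin oxidases downstream of plexins, were raised. The row ENSMUSG00000003178 rose 2.64-fold (limma adjusted p = 0.0132) and ENSMUSG00000051586 1.39-fold (0.0388), and as 2 rows of 1 symbol both are uncertain. The second kept its call without either replicate 1 and lost it in the other 6 omissions (0.0641 to 0.119).

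The lowered partners include regulators downstream of Eph receptors. Arhgef15, a vascular exchange factor for small GTPases, was at 15.1, 16.6, 15.1 and 14.2 FPKM in wild type hearts, against 12.2, 7.40, 8.03 and 7.42 FPKM in knockout hearts. Knockout replicate 1 lay between the wild type hearts and the other knockout hearts (log2 change -0.76 ± 0.14, limma adjusted p = 0.0106). Nck1, an adaptor that links receptors to actin, fell from 24.2 ± 2.15 to 15.8 ± 2.52 FPKM (log2 change -0.59 ± 0.11, limma adjusted p = 0.0119). Vav3, an exchange factor recruited by Eph receptors, fell 1.51-fold (limma adjusted p = 0.0228), and lost its call without wild type replicate 1, 2 or 4 (0.0530 to 0.0723). Evl, a relative of Enah in the same actin regulator family, fell 1.38-fold (limma adjusted p = 0.0170), and its adjusted p was just over the threshold, up to 0.0512, when wild type replicate 2, wild type replicate 4 or knockout replicate 2 was left out.

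The summed level of 12 endothelial markers, Robo4 among them, was 687 to 787 FPKM in wild type and 664 to 726 FPKM in knockout hearts. Of these 12, 1 was raised and 3 lowered, which makes 33.3% called beside 12.2% of all genes, and 25% lowered beside 6.01%. Their median log2 change was -0.21, and none was at 0. Eng, a TGF-beta co-receptor, was the raised one, while Tek, the angiopoietin receptor, and Tie1, its partner receptor, were lowered with Robo4. Tie1 was 38.5 ± 2.33 FPKM in wild type hearts against 24.8 ± 1.74 FPKM in knockout hearts, or 1.56-fold lower (limma adjusted p = 0.00202). Tek was 22.4 ± 1.52 against 14.8 ± 2.01 FPKM, or 1.51-fold lower (limma adjusted p = 0.00779). In both the groups did not overlap. Cdh5, the cadherin of endothelial junctions, was at 94.9 ± 1.6 FPKM in wild type hearts against 80.7 ± 9.40 FPKM in knockout hearts, and Pecam1, an adhesion molecule of all endothelium, at 94.5 ± 5.0 and 111 ± 6.94 FPKM. Neither passed the test (limma adjusted p = 0.102 and 0.0665). Set against Cdh5, Robo4 was 16.96 to 20.1% in wild type and 12.5 to 15.0% in knockout hearts, without overlap, and against Pecam1 17.7 to 19.1% and 8.77 to 12.5%. Efna1 was also lower against both, without overlap. Unc5b was higher against both, at 9.01 to 10.7% and 15.7 to 25.6% of Cdh5. Ephb4 and Efnb2 overlapped between the groups as a share of Cdh5 and not as a share of Pecam1. These ratios were chosen after the values were seen. The mean log2 level of 6 endothelial markers (Pecam1, Cdh5, Tek, Kdr, Esam and Egfl7) was also used as a covariate. Sema3f was then the only guidance gene called, with 31 genes called in the whole table. Under that fit Robo4 had a log2 change of -0.27, Efna1 of -0.21, Unc5b of 0.53, Sema6a of -0.72 and Efnb1 of -0.60. In the reported fit these were -0.63, -0.60, 0.61, -0.78 and -0.43, in the same order. Tek, 1 of the 6, was itself lowered, so the covariate may partly carry the genotype. A call lost under it therefore does not tell endothelial content and genotype apart. How far endothelial RNA content bears on these changes was not tested further.

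Other cell markers moved in the same hearts. The summed level of 5 epicardial markers was 34.3 to 63.5 FPKM in wild type, the highest in replicate 4, and 62.4 to 76.7 FPKM in knockout hearts. Of these 5, Wt1 and Krt19 were raised (40% called, beside 12.2% of all genes). Upk3b, Msln and Tbx18 did not pass the test (limma adjusted p = 0.383, 0.924 and 0.908). Their means were 11.4, 14.9 and 2.03 FPKM in wild type hearts against 9.04, 15.5 and 2.08 FPKM in knockout hearts. The sum of 7 nerve and glia markers was 4.55 to 7.63 FPKM in wild type and 1.95 to 4.94 FPKM in knockout hearts, with Dbh, an enzyme of noradrenaline synthesis, lowered from 2.13 to 0.648 FPKM and no marker at 0. Of 4 endocardial markers 1 was lowered (25%, beside 6.01% of all genes). It was Cytl1, with 9.13 to 13.5 FPKM in wild type hearts against 2.27 to 7.34 FPKM in knockout hearts (limma adjusted p = 0.0120). The 2 red cell markers, Hba-a1 for alpha globin and Alas2 for heme synthesis, summed to 554 to 2666 FPKM in wild type hearts against 88.4 to 694 FPKM in knockout hearts, with overlap. Their means were 3.46-fold and 3.55-fold lower in the knockout hearts, and neither passed the test (limma adjusted p = 0.122 and 0.0759). Of fibroblast markers 2 of 6 were lowered and none raised (33.3% called, beside 12.2% of all genes). Of pericyte and smooth muscle markers 1 of 8 was raised and none lowered (12.5% called), a share near that of all genes. Guidance genes are expressed in nerve and epicardium too. The part of these cells in the changes was not tested.

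**Figure D5:**
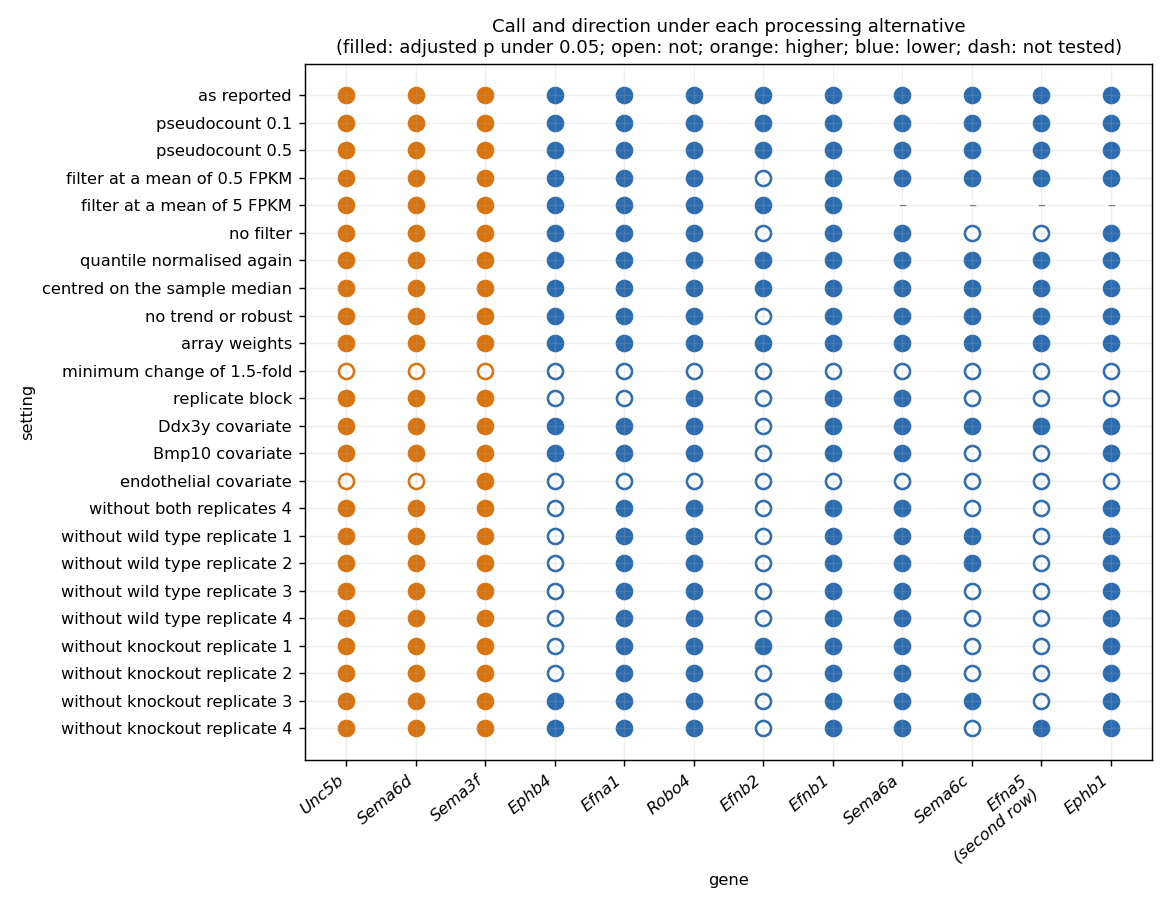
The 12 called guidance genes (columns) under the reported fit and 23 processing alternatives (rows). Filled circles are an adjusted p under 0.05, open circles are not, dashes were not tested, and orange is higher and blue lower in the knockout hearts. No circle changes colour, and Sema3f loses its call only at a minimum change of 1.5-fold while Efnb2 loses it under 16 alternatives.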

How the data were processed

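Libraries of RNA from 8 whole hearts at postnatal day 12 were prepared with a TruSeq kit, per the labels' protocols. The submitters' processing notes name TopHat2, Cufflinks and the mm10 build, without versions. The deposited table holds FPKM of coding genes, quantile normalised across the samples by the authors, so columns share nearly 1 distribution of values, and depth and counting error are unknown. Groups are those of the labels.

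All genes averaging 1 FPKM or more over the samples were fitted with limma 3.58.1 (R 4.3.3; lmFit, eBayes with trend and robust) on log2(FPKM + 1), without covariates, with Benjamini-Hochberg adjustment over all 11390 genes. On simulated data the fit of 11390 genes recovered 65.7% of genes changed 1.5-fold, 89.6% at 2-fold and 98.5% at 4-fold, and 8 of 177 calls were false. The simulation changed only 67, 67 and 66 genes at these folds and let each gene vary independently. It held no differences shared by many genes of a sample, so its rates need not hold for these hearts. Named genes were every called member, Robo4, Unc5b, the most abundant member of each family and every called gene of the co-receptor and partner lists; other members are named for a range or order, or after their values were seen. Members and lists were chosen with earlier results of these data known. Python 3.11.15, pandas 2.3.3 and matplotlib 3.10.9 made the summaries and figures. GENCODE M21 gave coordinates for 65 of the 67 members, and RefSeq gave promoters. Of the marker genes, Adgre1, Hbb-bs and Hbb-bt did not match by symbol, and the result of 1 marker is not reported here. The 23 alternatives changed the pseudocount, filter, scaling, variance model, weights, threshold, block, covariate or samples.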

Additional observations from a re-analysis of the deposited data

Results flagged for a closer look

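Among 102 groups of 4 samples of the named genes, 5 (4.90%) had 1 sample far from the other samples of its group, and chance gives about 1 in 20. Sema6a was at 5.67 FPKM in wild type replicate 1 and at 5.06 to 5.14 FPKM in the others. Ephb3 was at 1.90 FPKM in wild type replicate 1 and at 2.44 to 2.502 FPKM in the others. Knockout replicate 1 was the distant sample in the other 3 groups. It held Slit3 at 1.49 FPKM, against 3.41 to 3.71 FPKM in the other knockout hearts. Flrt2 was at 1.19 FPKM there, against 1.53 to 1.56 FPKM. Arhgef15 was at 12.2 FPKM there, against 7.40 to 8.03 FPKM, which puts this sample nearest to the wild type hearts.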

How the results depend on the processing

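Direction held for all 12 called guidance genes under every one of the 23 alternatives in which they were tested. Scaling, pseudocount and array weights ended no call among them. The minimum change of 1.5-fold is a limma test of whether a change exceeds 1.5-fold, so a gene with a larger estimate can fail it. All genes called (1385 as reported) numbered 37 at a minimum change of 1.5-fold, 31 with the endothelial covariate and 574 to 1819 when 1 sample was left out. Guidance genes raised (3) numbered 0 at the minimum change, 1 with the endothelial covariate and 3 to 5 when 1 sample was left out. Those lowered (9) numbered 5 at a filter of 5 FPKM, where 4 of them were no longer tested, 0 at the minimum change, 0 with the endothelial covariate, 5 without both replicates 4 and 5 to 8 when 1 sample was left out. Co-receptors called (2) numbered 1 at the filter of 5 FPKM, 1 without a filter, 0 at the minimum change, 1 with the Ddx3y covariate, 0 with the endothelial covariate and 1 to 2 when 1 sample was left out. Intracellular partners called (8) numbered 5 at the filter of 5 FPKM, 0 at the minimum change, 0 with the endothelial covariate and 4 to 12 when 1 sample was left out. Apart from the filter of 5 FPKM, the cause of these moves was not tested. The sign turned under at least 1 alternative for 7 uncalled guidance genes and for no called one. With the endothelial covariate all 7 had the other sign, at 0.11 for Plxnd1, 0.16 for Sema7a, 0.17 for Plxna2, 0.49 for Sema3b, -0.022 for Epha2, -0.036 for Sema4d and -0.41 for Slit3. Epha2, Plxna2 and Sema3b also turned when 1 sample was left out, and Sema3b with array weights, without both replicates 4 and with Ddx3y as a covariate. The log2 change of Slit3 (0.01) was -0.0072 at a pseudocount of 0.1, -0.15 with the Ddx3y covariate, -0.41 with the endothelial covariate, -0.013 without both replicates 4 and -0.079 to 0.23 when 1 sample was left out.

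Whether replicate numbers pair the samples was checked on each sample's deviations from its group mean over the tested genes. These deviations had correlations of -0.23 to 0.10 between same-numbered samples, and 1 of 4 pairs correlated best with its own number. This gave no sign of pairing, but with 4 samples per group it cannot exclude one. With the replicate block, 613 genes in all were called, 3 guidance genes raised and 3 lowered, 1 co-receptor and 3 intracellular partners; Efna1, Efnb2, Ephb1, Ephb4, Sema6c and the called Efna5 row were not among them. Depth is unknown, which limits what can be said of genes under 1 FPKM.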
